A study of Macaca mulatta with 12 samples.

Results

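TRBD1 and TRBD2 are the D gene segments of the T cell receptor beta locus (TRB), and every clonotype was sorted by the D gene named first in its D hits and by the J cluster (TRBJ1 or TRBJ2) of the J segment named first. A clonotype was a row of a clone table with its own CDR3 nucleotide sequence, CDR3 being the stretch where V, D and J segments meet. Of 218161 clonotypes in the 8 post-infusion libraries, 163946 had a D hit. With the 4 baseline libraries included, the number was 164063 of 218326. The post-infusion clonotypes comprised 54402 TRBD1-TRBJ1, 57438 TRBD1-TRBJ2, 7690 TRBD2-TRBJ1 and 44416 TRBD2-TRBJ2 joins, and 54215 clonotypes had no D hit.

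The study followed T cell clones in Indian-origin rhesus macaques (Macaca mulatta) infused with apoptotic donor leukocytes (ADLs), donor white cells cross-linked outside the body, which then enter apoptosis once given into a vein. TRB transcripts were amplified from total RNA of frozen peripheral blood leukocytes, and since the tables hold no other gene, the cell type could not be checked against markers. Per the series text, the infusions fell on days -7 and 1 around an intended transplant on day 0, under transient immunosuppression with an anti-CD40 antibody, rapamycin, tocilizumab and etanercept, in animals that received no graft and were not diabetic. The post-infusion libraries carried the animal labels Amazo (days -5, -4 and +3), Nebula (days -5, -4 and 0) and Rocket (days -5 and -4). The 4 baseline libraries carried none of these labels and are called baseline 1 to 4. Total counts ran from 42695 to 556954 in 17061 to 36038 clonotypes after infusion, and from 63 to 74 in 30 to 49 clonotypes at baseline.

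The libraries labelled Amazo did not hold 1 repertoire. Of the 1114 TRBD2-TRBJ1 clonotypes in the library labelled Amazo day -5, 84 (7.54%) also occurred in Rocket day -4 and 6 (0.539%) in the library labelled Amazo day -4. Of the 797 in the library labelled Amazo day +3, 69 (8.66%) also occurred in Rocket day -4 and 0 in the library labelled Amazo day -4. The 3 Nebula libraries shared 53 to 75 TRBD2-TRBJ1 clonotypes with each other. Results were therefore also computed without the libraries labelled Amazo day -5 and day +3. The 8 libraries came from 3 animal labels, so the tests over libraries measure the spread between libraries and not between animals, and with 1 value per label no exact test can go below p = 0.25.

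During T cell development a D segment first joins a J segment, and the DNA between them is deleted. TRBD1 lies upstream of both J clusters and can join either. TRBD2 lies downstream of the TRBJ1 cluster and just upstream of TRBJ2, so deletion of intervening DNA gives TRBD2-TRBJ2 and leaves no route from TRBD2 to TRBJ1. The D segments are short, rich in G and alike, and they are trimmed at both ends and flanked by untemplated bases before the junction is sealed, so the D gene of a finished junction must be read from a few remaining bases.

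The sequences of both genes were read back from the mismatch-free alignments in the clone tables and are shown because every D assignment rests on them. The capitals mark where they differ, with positions counted from 1 at the 5′ end of the gene.
TRBD1: gggacAgggggg
TRBD2: gggacTggggggA
The genes have 12 and 13 bases and differ by A6T (TRBD1 to TRBD2) and by the last base of TRBD2 at position 13. Each base was covered by 20606 to 80705 alignments for TRBD1 and 7755 to 39477 for TRBD2. The leading base held 100% of alignments at every position, which was fixed in advance, since only alignments without a mismatch were used. The sequences are thus those of the aligner's reference, and the germline of these animals was not checked. The 5 bases before position 6 and the 6 after it are the same in both genes. The aligner also matched flanks, which are the reverse complement of the gene on either side and stand for palindromic bases, so a D stretch could hold bases of the gene, bases of the flank or both. The shortest stretch in the files was 5 bases.

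TRBD1 joined both J clusters about equally and TRBD2 joined TRBJ2 in most clonotypes, though not in all. The share of TRBD2 clonotypes joined to TRBJ1 was 12.4%, 15.8% and 12.5% in the libraries labelled Amazo day -5, day -4 and day +3. It was 17.7%, 18.8% and 17.7% in Nebula day -5, day -4 and day 0, and 12.95% and 12.78% in Rocket day -5 and day -4. The widest 95% Wilson interval ran from 17.6% to 20% (Nebula day -4). The TRBJ1 share of TRBD1 ran from 45.3% (Rocket day -5) to 52.4% (Nebula day 0), with a median of 47.2%. All 8 values of TRBD2 lay below all 8 of TRBD1, and the 4 libraries with the lowest values of TRBD2 were those labelled Amazo day -5, Amazo day +3 and Rocket.

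The mean TRBJ1 share was 15.1% ± 2.71 for TRBD2 and 48.6% ± 2.99 for TRBD1 (SD, n = 8). The difference was -33.5 ± 1.10 percentage points, lower in 8 of 8 libraries (exact two-sided sign-flip permutation test, p = 0.0078, the smallest possible, Benjamini-Hochberg adjusted p = 0.010 over 9 tests). Without the libraries labelled Amazo day -5 and day +3 it was -33.4 points (exact p = 0.031, the smallest possible with 6 libraries). Clonotypes without a D hit joined TRBJ1 in 40.8% ± 2.99 (SD, n = 8). Read from the J side, TRBD2 made up 12.4% ± 0.47 of D-assigned TRBJ1 clonotypes, with a range of 11.9% to 13.4%, and 43.4% ± 1.85 of D-assigned TRBJ2 clonotypes (SD, n = 8).

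**Figure D1:**
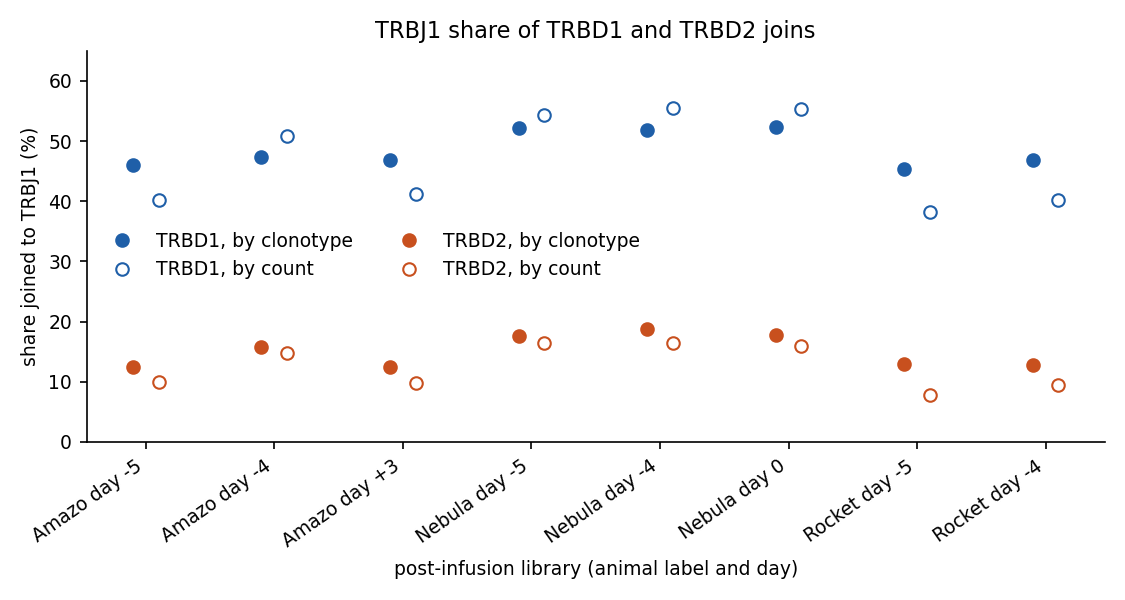
Share of TRBD1 (blue) and TRBD2 (orange) joins that went to TRBJ1, in percent, for each of the 8 post-infusion libraries, by clonotype (filled) and by count (open). The TRBD2 points by clonotype lie between 12.4% and 18.8%, below every TRBD1 point.

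TRBD2 made up 11.1% (TRBJ1-4) to 13.5% (TRBJ1-5) of D-assigned clonotypes in each TRBJ1 segment. In the 7 TRBJ2 segments it made up 36.5% (TRBJ2-7) to 49.8% (TRBJ2-5), so the segments of each cluster lay together and apart from the other cluster. With a D stretch of at least 9 aligned bases the TRBD2 share fell to between 3.16% ± 0.835 (TRBJ1-4) and 5.27% ± 1.42 (TRBJ1-1) in TRBJ1 and stood between 46.7% ± 2.71 (TRBJ2-7) and 65.7% ± 2.28 (TRBJ2-5) in TRBJ2 (SD, n = 8). The ranges of segments of the same cluster overlapped in part, and no segment of 1 cluster reached a mean of the other.

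**Figure D2:**
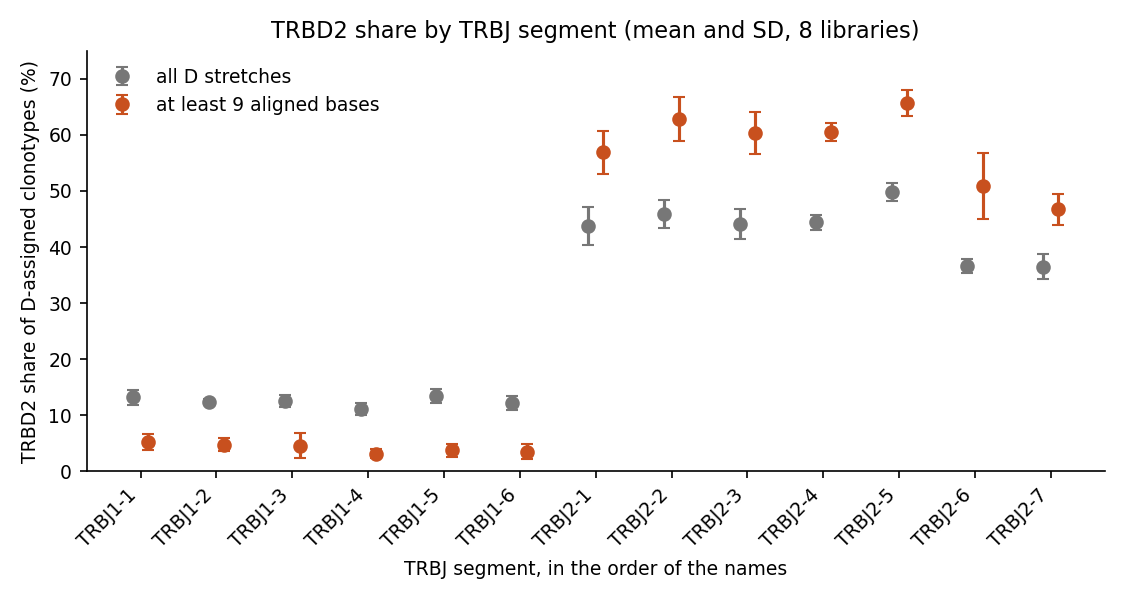
TRBD2 share of the D-assigned clonotypes of each TRBJ segment, in percent (mean and SD over 8 libraries), for all D stretches (grey) and for stretches of at least 9 aligned bases (orange). In TRBJ1 the share is lower with long stretches, and in TRBJ2 it is higher.

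Short and long D stretches gave different TRBJ1 shares. TRBD2 stretches of at most 6 bases were joined to TRBJ1 in 25.6% to 33.5% of clonotypes, and stretches of at least 9 bases in 2.01% to 5.17%. The 2 ranges did not overlap. The means were 29.3% ± 3.27 and 3.33% ± 1.18, a difference of 26.0 ± 2.30 points (SD, n = 8, higher for short stretches in 8 of 8 libraries, exact sign-flip p = 0.0078, adjusted p = 0.010). By single lengths, the TRBJ1 share of TRBD2 was 33.3% ± 4.37 at 5 aligned bases, 17.8% ± 2.78 at 7 and 5.75% ± 2.00 at 9. The TRBJ1 share of TRBD1 was 46.5% ± 2.91 at 5 bases and 51.9% ± 2.43 at 9 (SD, n = 8).

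The mean D stretch measured 6.36 ± 0.0728 bases in TRBD2-TRBJ1 and 8.39 ± 0.113 bases in TRBD2-TRBJ2 (SD, n = 8). The differences ran from -2.28 to -1.87 bases in the 8 libraries, with a mean of -2.03 ± 0.140 (shorter in TRBD2-TRBJ1 in 8 of 8, exact sign-flip p = 0.0078, adjusted p = 0.010). Counted in bases of the gene alone, without flank, productive TRBD2 clonotypes held 5.01 ± 0.0892 bases in TRBJ1 joins and 7.83 ± 0.158 in TRBJ2 joins. Productive TRBD1 clonotypes held 6.71 ± 0.0444 and 6.28 ± 0.0628 gene bases in TRBJ1 and TRBJ2 joins (SD, n = 8).

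Stretches that matched the gene without a mismatch showed the same order base by base. Over the 8 libraries, TRBD2 stretches with 5 gene bases were joined to TRBJ1 in 2017 of 6282 clonotypes, a mean share of 32.1% ± 3.39. The share was 22.2% ± 2.41 with 6 gene bases, 14.6% ± 2.60 with 7, 6.0% ± 1.23 with 8 and 1.17% ± 0.633 with 9 (SD, n = 8). From 10 gene bases upward 14 of 10654 clonotypes remained, a pooled share of 0.131% (95% Wilson interval 0.0783% to 0.220%). The whole gene of 13 bases occurred in 1414 TRBD2-TRBJ2 clonotypes and in 0 TRBD2-TRBJ1 clonotypes, which allows a share of up to 0.212%. The whole TRBD1 gene of 12 bases occurred in 651 TRBJ1 and 619 TRBJ2 clonotypes. Intervals and limits cover counting error only, since PCR copies are not independent molecules and clonotypes recur across libraries. The 1414 TRBD2-TRBJ2 clonotypes held 1306 distinct sequences.

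By count, stretches of 10 or more matched gene bases gave TRBD2-TRBJ1 87 of 92241 counts (0.0943%). Among all D-assigned clonotypes with such stretches, TRBD2 made up 0.278% ± 0.210 in TRBJ1, from 0% to 0.669%, and 69.9% ± 2.46 in TRBJ2, from 65.1% to 71.8% (SD, n = 8). The corresponding shares over all D stretches were the 12.4% and 43.4% given above.

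**Figure D3:**
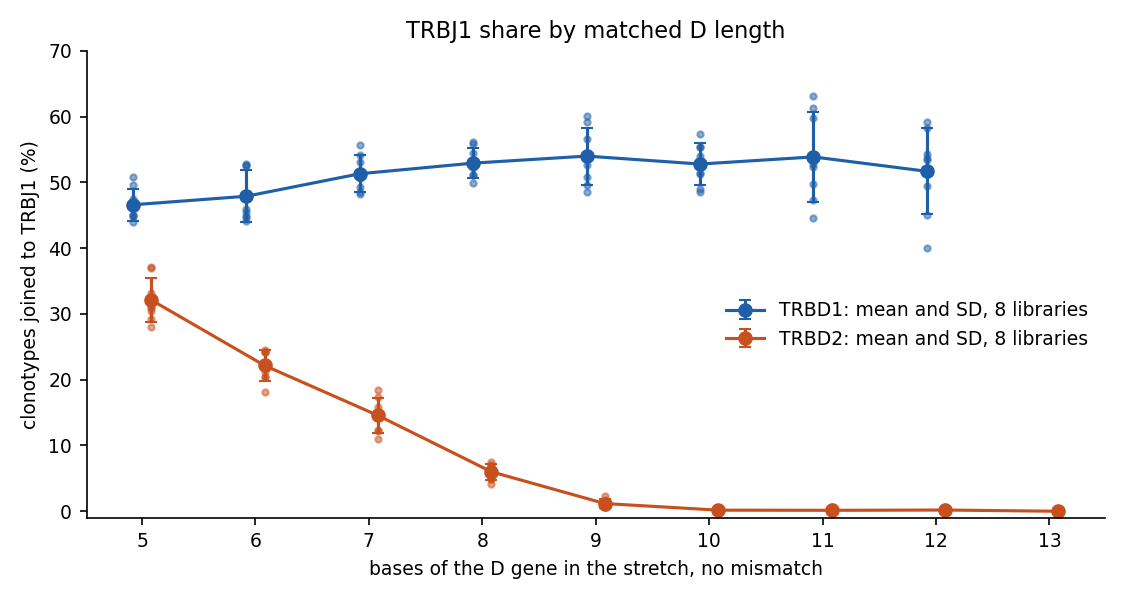
Share of clonotypes joined to TRBJ1, in percent, against the number of D gene bases in a stretch without mismatch, for TRBD1 (blue) and TRBD2 (orange). Small points are libraries, large points the mean with SD (n = 8), and TRBD2 falls from 32.1% at 5 bases to 1.17% at 9 and 0% at 13 while TRBD1 starts at 46.6%.

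The 14 TRBD2-TRBJ1 clonotypes with 10 or more matched gene bases were the nearest to a join outside the deletional order and were singled out after their values were seen. They occurred in 7 of the 8 libraries, none of them in more than 1 library, with 1 to 31 counts each and a median of 4.5. Of these, 13 were productive, and over all post-infusion clonotypes 8.03% ± 1.63 were nonproductive (SD, n = 8). Of long TRBD2-TRBJ2 clonotypes (at least 9 aligned bases), 11.3% ± 4.57 recurred in another library (SD, n = 8). The 14 are too few to be set apart from these shares. The nonproductive one, in Rocket day -5 with TRBJ1-3, had 1 count and a CDR3 of 127 bases. It also held the CDR3 end typical of TRBJ1-1 upstream (such forms are described below). A pair of TRBV23-1 and TRBJ1-3 clonotypes in the library labelled Amazo day -4, with 4 counts and 1 count, shared a D stretch of 11 gene bases. The pair differed by 1 base outside that stretch, with lowest base quality scores of 38 and 27. The 14 may therefore not be 14 separate joins. The 3 with 12 gene bases are shown with the D stretch in capitals.
Amazo day -4, TRBV7-9 and TRBJ1-2, 7 counts: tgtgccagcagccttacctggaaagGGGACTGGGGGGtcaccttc
Nebula day 0, TRBV4-3 and TRBJ1-2, 3 counts: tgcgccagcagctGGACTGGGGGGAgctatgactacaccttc
Nebula day -4, TRBV5-1 and TRBJ1-3, 2 counts: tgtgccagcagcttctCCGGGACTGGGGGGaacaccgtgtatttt
All 3 stretches cover position 6 with the base of TRBD2. In the first, 7 bases were aligned to the J segment, against 16 and 15 in the others.

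The lowest and highest numbers of long TRBD2-TRBJ1 stretches (at least 9 aligned bases) were 48 and 126 clonotypes a library, 625 in all and 0.108% to 0.355% of counts. Of these, 65.4% ± 4.18 carried a mismatch to the gene (SD, n = 8), from 57.5% to 71.2% by library. In long TRBD2-TRBJ2 stretches the share with a mismatch was 11.7% ± 1.45, and in long TRBD1 stretches 14.4% ± 0.837 with TRBJ1 and 17.6% ± 1.40 with TRBJ2 (SD, n = 8). The range of TRBD2-TRBJ1 lay above those of the other 3 joins. No stretch under 9 bases carried a mismatch. Of the long TRBD2-TRBJ1 clonotypes 7.65% ± 4.82 recurred in another library, against 11.3% ± 4.57 of long TRBD2-TRBJ2 clonotypes.

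The longest TRBD2-TRBJ1 stretch of each library had 14 to 16 aligned bases and 2 to 13 counts, and all but that of Nebula day -4 carried a mismatch or a gap. An example is shown with the stretch in capitals, in which 13 gene bases hold 3 mismatches.
Rocket day -5, TRBV5-6 and TRBJ1-1, 13 counts: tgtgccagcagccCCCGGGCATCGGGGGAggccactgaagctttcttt
Aligned length and matched length are therefore given separately above.

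The base that separates the genes was not always covered. Position 6 lay in the stretch of 78.1% ± 1.88 of TRBD2 clonotypes, whether or not its base matched, and 9.74% ± 1.89 of these were joined to TRBJ1. Another 16.7% ± 1.31 covered the last base and not position 6, and 31.4% ± 3.80 of these were joined to TRBJ1. A further 4.92% ± 0.692 rested on flank bases alone, and 42.9% ± 4.59 of these were joined to TRBJ1 (SD, n = 8), from 36.8% to 49.0% by library. The ranges of the 3 classes, 7.94% to 12.2%, 27.3% to 36.3% and 36.8% to 49.0%, did not overlap. TRBD1 stretches on flank bases alone gave 48.4% ± 3.58, and TRBD1 stretches that covered position 6 gave 51.5% ± 2.97 (SD, n = 8), with overlapping ranges. TRBD1 stretches that covered the last base of TRBD1 and not position 6 gave 38.03% ± 3.78, from 33.6% to 42.9%, below the range of those that covered position 6. Unlike the last base of TRBD2, the last base of TRBD1 is the same in both genes and does not separate them. Those that covered gene bases but neither position, 13.2% ± 0.156 of TRBD1 clonotypes, gave 39.8% ± 2.97 (SD, n = 8).

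Both D genes were listed for 24.2% to 25.7% of D-assigned clonotypes after infusion, and in 15.1% to 16.3% they tied in score. TRBD1 was named first in 100% of ties, so ties count as TRBD1 here. With clonotypes that listed a single D gene the difference between TRBD2 and TRBD1 in TRBJ1 share was -37.8 points, and with stretches that covered position 6 it was -41.7 points.

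**Figure D4:**
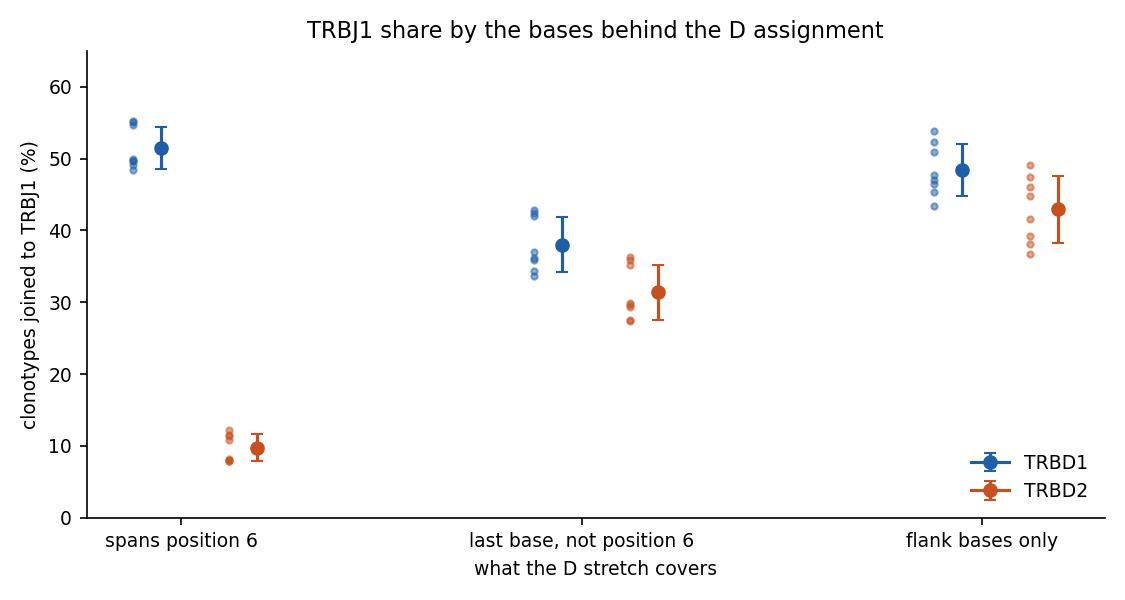
Share of clonotypes joined to TRBJ1, in percent, by what the D stretch covers, for TRBD1 (blue) and TRBD2 (orange). The last base of TRBD1 is the same in both genes, while that of TRBD2 separates them. Small points are the 8 libraries and large points the mean with SD, and for TRBD2 the mean is 9.74% where position 6 is covered, 31.4% where only the last base is, and 42.9% on flank bases alone.

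Clonotypes without a D hit were somewhat more frequent in TRBJ1. They made up 25.5% to 27.3% of TRBJ1 clonotypes, with a mean of 26.3% ± 0.691, and 22.3% to 26.0% of TRBJ2 clonotypes, with a mean of 24.0% ± 1.39 (SD, n = 8). The ranges overlapped, but within each library the TRBJ1 value was higher, by 0.470 to 3.19 points and on average by 2.25 ± 0.95 (8 of 8 libraries, exact sign-flip p = 0.0078, adjusted p = 0.010). Weighted by count the difference was 7.08 ± 7.32 points (SD, n = 8, exact sign-flip p = 0.016). It was higher in TRBJ1 in 7 of 8 libraries, and in the library labelled Amazo day -4 the values were 24.3% in TRBJ1 and 24.7% in TRBJ2. The difference was 9.17 to 18.1 points in the libraries labelled Amazo day -5, Amazo day +3 and Rocket, which share clones. In the library labelled Amazo day -4 and the Nebula libraries it was -0.359 to 1.94 points. By segment, the share without a D hit was highest in TRBJ2-6 (37.1% ± 2.43) and lowest in TRBJ2-1 (21.7% ± 1.33).

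Productive clonotypes, which have an open reading frame through the CDR3, were compared with nonproductive ones. The latter are in general not selected for the receptor they encode. Many clonotypes with an in-frame stop may not meet this reason. Of 1606 in TRBJ1-3, 1427 held the CDR3 end of TRBJ1-1 or TRBJ1-2 upstream (described below). The TRBJ1 share of TRBD2 was 12.1% to 18.6% in productive and 15.2% to 24.0% in nonproductive clonotypes, ranges that overlap. The means were 14.7% ± 2.68 and 19.8% ± 3.61, and the share was higher in nonproductive clonotypes in 8 of 8 libraries, by 2.46 to 7.74 points and on average by 5.08 ± 1.99 (exact sign-flip p = 0.0078, adjusted p = 0.010). In stretches of at least 9 bases the difference was 1.57 ± 2.98 points (exact sign-flip p = 0.15). Out-of-frame TRBD2 clonotypes were joined to TRBJ1 in 17.3% ± 3.53 and in-frame clonotypes with a stop codon in 37.9% ± 4.77 (SD, n = 8). TRBD1 showed values of 49.9% ± 4.15 and 79.1% ± 3.91 for these classes, against 47.9% ± 2.92 in productive clonotypes.

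Stop codons gathered in a single segment, TRBJ1-3. Among in-frame clonotypes of TRBJ1-3, 1440 of 6965 with TRBD1 (20.3% ± 5.79) and 143 of 1007 with TRBD2 (14.4% ± 4.83) carried a stop codon (SD, n = 8). TRBJ1-3 clonotypes without a D hit carried one in 0.763% ± 0.518. That value leaves out the shared ending described below, which itself holds bases that match a D gene. In each of the other 12 segments the mean was between 0.530% and 1.22% with TRBD1 and between 0.413% and 0.909% with TRBD2. With a D hit, the lowest library value of TRBJ1-3, 8.0%, lay above the highest library value of every other segment.

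Of 1606 in-frame TRBJ1-3 clonotypes with a stop codon, 1501 (93.5%) ended in the same 60 bases. Their CDR3 had a median of 129 bases, against 45 in productive TRBJ1-3 clonotypes. In the example below the ending holds the stop codon tga in frame, so an in-frame CDR3 with it is nonproductive by definition. That 0 of 9460 productive TRBJ1-3 clonotypes had the ending was therefore fixed in advance. Of the 1501, 445 held upstream of that ending the last 12 CDR3 bases typical of TRBJ1-1 and 942 those typical of TRBJ1-2, together 92.4%. Of all 1606, 460 and 967 held them, and 0 held those of any other TRBJ segment. The clonotype of this kind with the highest count among those whose TRBD1 stretch covered position 6 is shown, with the CDR3 ends of TRBJ1-2 and TRBJ1-3 in capitals.
Rocket day -5, TRBV7-3, TRBD1 and TRBJ1-3, 160 counts: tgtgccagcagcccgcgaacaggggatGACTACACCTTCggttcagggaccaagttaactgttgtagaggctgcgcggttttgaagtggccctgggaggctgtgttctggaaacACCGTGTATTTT
The sequence holds the end of 1 TRBJ1 segment, a run of further bases and the end of a second. It is open in frame up to the TRBJ1-2 end, and its stop codon lies in the bases after that end. In all, 1948 clonotypes held the shared ending, 437 of them out of frame. Of the 1948, 1777 were assigned to TRBD1, 171 to TRBD2 and 0 to no D gene. The ending holds ctggg, 5 bases that match TRBD2, so a D match was present in each and the 0 was fixed in advance. After the TRBJ1-2 end the example also holds caggg, which matches TRBD1. How many D assignments rest on such bases was not tested.

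**Figure D5:**
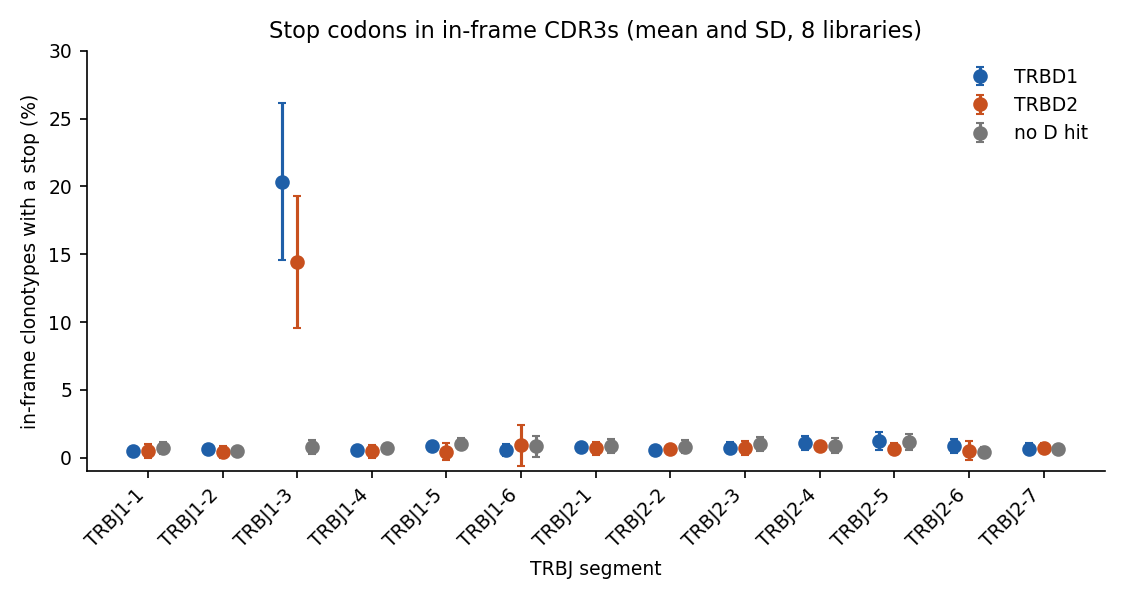
Share of in-frame clonotypes with a stop codon in the CDR3, in percent, by TRBJ segment (mean and SD over 8 libraries), for TRBD1 (blue), TRBD2 (orange) and no D hit (grey). TRBJ1-3 stands at 20.3% with TRBD1 and 14.4% with TRBD2, and every other mean is at most 1.22%.

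Over all segments, 0.976% ± 0.352 of in-frame TRBD2 clonotypes and 2.07% ± 0.687 of in-frame TRBD1 clonotypes carried a stop codon. TRBD2 was lower in 8 of 8 libraries, with differences from -1.51 to -0.236 points and a mean of -1.09 ± 0.399 (SD, n = 8, exact sign-flip p = 0.0078, adjusted p = 0.010). Without TRBJ1-3, an alternative added after the data were seen, the difference was -0.0516 ± 0.152 points (exact sign-flip p = 0.39). The call thus rested on that segment, where D assignments may come from bases outside the rearranged D (above). The higher TRBJ1 share of nonproductive TRBD2 clonotypes was 1.59 ± 1.62 points without TRBJ1-3 (exact sign-flip p = 0.047, not adjusted). By join, the stop share was 3.39% ± 1.15 in TRBD1-TRBJ1, 2.50% ± 0.880 in TRBD2-TRBJ1, 0.821% ± 0.273 in TRBD1-TRBJ2 and 0.714% ± 0.266 in TRBD2-TRBJ2 (SD, n = 8).

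Weighting by count lowered the TRBJ1 share of TRBD2. By count it was 10.0%, 14.8% and 9.72% in the libraries labelled Amazo day -5, day -4 and day +3. It was 16.4%, 16.5% and 16% in Nebula day -5, day -4 and day 0, and 7.87% and 9.42% in Rocket day -5 and day -4. The libraries labelled Amazo day -5, Amazo day +3 and Rocket were again the 4 lowest. The mean was 12.6% ± 3.66 by count, and the differences from the share by clonotype ran from -5.08 to -0.978 points, with a mean of -2.48 ± 1.31 (SD, n = 8, lower in 8 of 8 libraries, exact sign-flip p = 0.0078, adjusted p = 0.010). In stretches of at least 9 bases the TRBJ1 share was 2.34% ± 1.18 of counts and 3.33% ± 1.18 of clonotypes. In blood, a higher count of a clonotype can stand for more cells or for more RNA per cell, which cannot be told apart.

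A few large clonotypes shaped the count-weighted values. They are shown with the D stretch in capitals, because their D genes rest on few bases.
TRBV21-1, TRBD2 and TRBJ1-4: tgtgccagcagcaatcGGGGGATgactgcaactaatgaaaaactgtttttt
TRBV29-1, TRBD2 and TRBJ2-1: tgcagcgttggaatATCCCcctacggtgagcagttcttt
TRBV12-2, TRBD2 and TRBJ2-3: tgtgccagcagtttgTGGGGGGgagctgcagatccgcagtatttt
TRBV5-1, TRBD1 and TRBJ1-4: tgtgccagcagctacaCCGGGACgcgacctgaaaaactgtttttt
TRBV6-3, TRBD1 and TRBJ1-1: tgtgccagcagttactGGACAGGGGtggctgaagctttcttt
The TRBV21-1 clonotype was the largest TRBD2-TRBJ1 clonotype in the libraries labelled Amazo day -5, Amazo day +3, Rocket day -5 and Rocket day -4, at 0.927%, 1.10%, 1.03% and 1.10% of counts. It took 33.1%, 38.4%, 42.5% and 38.6% of the TRBD2-TRBJ1 counts of these libraries, and without it the TRBJ1 share of TRBD2 counts was 6.92%, 6.22%, 4.68% and 6.0%. Its stretch holds 6 gene bases and 1 flank base, without position 6. In the other libraries the largest TRBD2-TRBJ1 clonotype took 0.0190% (TRBV27 and TRBJ1-6, Nebula day 0) to 0.0468% (TRBV7-4 and TRBJ1-5, Nebula day -4) of counts.

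The TRBV29-1 clonotype was the largest TRBD2-TRBJ2 clonotype, at 8.35% of counts in Rocket day -5, 6.26% in Rocket day -4, and 3.85% and 5.88% in the libraries labelled Amazo day -5 and day +3. Its stretch holds 1 gene base and 4 flank bases. Without it the TRBJ1 share of TRBD2 counts was 10.8% in Rocket day -5 and 11.9% in Rocket day -4, below the share by clonotype in both. The TRBV12-2 clonotype reached 3.36% in Rocket day -5 on 7 gene bases that include position 6.

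The largest TRBD1-TRBJ1 clonotypes were the TRBV5-1 clonotype, at 6.64% of counts in the library labelled Amazo day -4, and the TRBV6-3 clonotype, at 4.07% in Nebula day -4. The first tied between both D genes on 5 shared gene bases and 2 flank bases. The second covered position 6 with 9 gene bases.

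Time after infusion was compared within the animal labels. From day -5 to day -4, which are 2 and 3 days after the first infusion, the TRBJ1 share of TRBD2 clonotypes was 12.4% and 15.8% in the libraries labelled Amazo, 17.7% and 18.8% in Nebula, and 12.95% and 12.78% in Rocket. The mean difference was 1.41 ± 1.78 points (SD, n = 3 pairs, exact sign-flip p = 0.5, and 3 pairs cannot go below 0.25), smaller than the spread between pairs. It was 0.45 points without the Amazo pair, 2.21 without the Rocket pair and -0.222 in stretches of at least 9 bases. The Amazo pair compares libraries with different clones.

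At baseline the TRBJ1 share of TRBD2 rested on 2 of 10, 0 of 4, 0 of 6 and 1 of 6 clonotypes in baseline libraries 1 to 4. The values were 20%, 0%, 0% and 16.7%, with a widest Wilson interval from 3.01% to 56.4%. The upper Wilson limits of the values at 0% were 48.99% and 39.03% in libraries 2 and 3. The mean was 9.17% ± 10.7 (SD, n = 4) against 15.1% ± 2.71 after infusion (SD, n = 8), and the ranges overlapped. The difference of 5.91 points gave an exact permutation p = 0.14 (adjusted p = 0.15), and neither its call nor its sign held under every alternative. It was -1.25 points with at least 2 counts, and 11.2 with a single D gene listed and 3.33 in stretches of at least 9 bases (both exact permutation p = 0.0020, on 1 and 0 TRBD2-TRBJ1 clonotypes at baseline). Without baseline 1 it was 9.52 points (exact permutation p = 0.036), and without baseline 2 or baseline 3 it was 2.85 points (exact permutation p = 0.49). Baseline libraries differed from the others in animal label, kind and depth as well as in time, and these cannot be told apart. TRBD1 joined TRBJ1 in 33.3% to 70.6% of baseline clonotypes.

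Across libraries, TRBD2 took 18.4% (the library labelled Amazo day -4) to 30.9% (Rocket day -5) of counts, and its 4 highest values were those of the libraries labelled Amazo day -5, Amazo day +3, Rocket day -5 and Rocket day -4. Of 33 TRBV genes with at least 1% of counts on average, TRBV19, TRBV11-1 and TRBV28 followed the TRBD2 share most closely over the 8 libraries, with Pearson's r of 0.992, 0.984 and 0.972. These values are a description over 8 libraries that fall into sets with shared clones, and no test was made.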

How the data were processed

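Total RNA from frozen blood leukocytes was reverse transcribed with template switching, rearranged TRB was amplified by PCR, and 12 libraries were sequenced on a MiSeq. Read trimming (Trimmomatic) and clone assembly (MiXCR, default settings) were done by the authors, and the MiXCR version is not given in the sources used here. Each deposited table gives a whole-number count per clone, not normalized, a clone fraction, which is the count over the table total, and a minimum base quality score of the CDR3. The methods of the study describe barcode collapsing and a clone threshold, but the tables hold no barcode column and keep clones of 1 count, so counts were used as deposited. The fraction was not used further, and the deposited quality score served as a description.

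The members and lists were chosen with earlier results of these data known. D gene, J segment and D alignment were taken from the first hit, and short and long D stretches had at most 6 and at least 9 aligned bases. Clonotypes out of frame or with a stop codon in the CDR3 were nonproductive. Differences within libraries were tested by exact two-sided sign-flip permutation tests (8 libraries or 3 pairs), and post-infusion against baseline by an exact two-sided permutation test of libraries, which cannot go below p = 0.0020. P-values were adjusted by Benjamini-Hochberg over 9 tests and called below 0.05. Pairs of day -5 and day -4 came from the animal label. Named clonotypes were the largest and the longest-stretch TRBD2-TRBJ1 clonotype of each library and the 2 largest TRBD2-TRBJ2 and TRBD1-TRBJ1 clonotypes. Genes like TRBD2 were TRBV genes with at least 1% of counts. Alternatives were counts of at least 2 and merging of rows with the same CDR3 sequence. Others were merging of sequences 1 base from a clone at least 10 times larger, and unambiguous D or J hits. Further ones were long stretches, count weighting, 1 value per animal label, and leaving out libraries. Alternatives on position 6, mismatches, flank bases and TRBJ1-3 were added after the data were seen. Chromosome positions were not used here. Routines were tested on simulated data. Software was Python 3.11.15, numpy 2.4.6, pandas 2.3.3, scipy 1.17.1 and matplotlib 3.10.9.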

Additional observations from a re-analysis of the deposited data

Results flagged for a closer look

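Among 31 sets of values examined for a sample far from the others, 1 stood out, and about 1 set in 20 is flagged by chance. The difference in in-frame stop share between TRBD2 and TRBD1 was -0.236 points in Nebula day -4, while the other 7 post-infusion libraries lay between -1.51 and -0.945 points. In that library 0.993% of in-frame TRBD1 clonotypes and 0.757% of in-frame TRBD2 clonotypes carried a stop codon. It was also the shallowest post-infusion library (42695 counts), and 42.7% of its clonotypes had a single count, against 9.82% to 16.7% in the others. The part of depth in this value was not tested.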

How the results depend on the processing

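Over 179 combinations of result and alternative, 165 kept direction and side of an unadjusted 0.05. Merging rows with the same CDR3 sequence could change nothing, since no CDR3 was repeated within a library. It counts among the 165 for every result. With 1 value per animal label, each of the 7 within-library differences kept its direction but could not go below exact p = 0.25: -33.5 points for TRBD2 against TRBD1, 4.82 for nonproductive against productive, -2.68 for count against clonotype, 25.8 for short against long stretches, -2.04 bases of D length, 2.34 points without a D hit and -1.11 for in-frame stops. The nonproductive difference was 1.57 points in stretches of at least 9 bases (exact p = 0.15), and the cause was not tested. Without TRBJ1-3 the stop difference was -0.0516 points (exact p = 0.39). TRBJ1-3 held 1440 of 2140 stops with TRBD1 and 143 of 453 with TRBD2, and the cause was not tested. Against baseline, the difference of 5.91 points became -1.25 with at least 2 counts, 11.2 with a single D gene listed and 3.33 in stretches of at least 9 bases (both exact permutation p = 0.0020). The last 2 values rested on 1 and 0 TRBD2-TRBJ1 clonotypes at baseline. It ran from 2.85 to 9.52 when 1 library was left out, and passed an unadjusted 0.05 without baseline 1 (9.52, exact permutation p = 0.036). The day -4 against day -5 difference was -0.222 points in stretches of at least 9 bases, against 1.41. Without the animal label as replicate block it gave exact permutation p = 0.6 for the same 1.41 points. The labels pair the samples by animal name, which the shared clones bear out for Nebula and Rocket and not for Amazo, and the block changed no call. Depth limits the baseline libraries most, where 4 to 10 TRBD2 clonotypes were read.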
